A study of Mus musculus with 2 samples.

Results

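The cells described here are 500 barcodes of whole mouse testis, 250 from each of 2 single-cell RNA libraries, with the highest share of RNA from 6 genes of late meiotic spermatocytes. They were taken from 38095 barcodes, 15210 in the heterozygous and 22885 in the knockout library. A barcode stands for 1 captured droplet, and a UMI (unique molecular identifier) for 1 counted RNA molecule. To be a candidate, a barcode needed at least 3000 UMIs, at most 20% mitochondrial UMIs, under 3 UMIs in sum of Zbtb16, Sall4, Kit, Crabp1 and Stra8, and at least 4 UMIs in sum of Aurka, Cdk1 and Cdca8. Candidates were ranked by their score, the share of UMIs from Aurka, Cdk1, Cdca8, Pabpc6, Ppp1r27 and Nek2, and the 250 highest of each library became members. These gene counts chose the members, so the levels of the 6 genes are given below as a description only.

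Meiosis turns 1 germ cell with a doubled genome into haploid spermatids by a long prophase and a pair of fast divisions. In the pachytene stage chromosomes are paired along the synaptonemal complex and crossovers are made, in diplotene the complex comes apart, and the kinase CDK1 with its cyclins then drives spindle assembly and chromosome separation. The X and Y chromosomes are silenced through pachytene and stay largely silent up to the divisions, and some X-linked genes are read again in round spermatids.

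Tubules were dissociated with washes meant to remove Leydig cells, and per the labels 15000 cells of each testis preparation were loaded. The heterozygous library came from Prm2 +/- mice and the knockout library from Prm2-/- mice. Both groups therefore carry a disrupted Prm2 allele, and no wild-type library is used here. Prm2 encodes protamine 2, a sperm DNA packing protein made after meiosis. Age, strain and the number of animals are not given in the sources used here, and since each genotype has a single library there is no test. Every interval below is at 95% and covers counting error only, and a 2-fold difference is a rule of size.

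The steps of the choice kept different shares of the libraries. At least 3000 UMIs were held by 6259 heterozygous (41.2%) and 13195 knockout barcodes (57.7%), and 6120 and 12914 also passed the mitochondrial and early germ cell limits. Candidates were 1372 of these in the heterozygous library (22.4%, exact Clopper-Pearson interval 21.4 to 23.5%) and 2482 in the knockout library (19.2%). Because the number of members was fixed, they were 18.2% of the heterozygous and 10.1% of the knockout candidates. The score limit thus lay higher in the knockout library. The lowest member score was 1887 CPM (UMIs of the genes per 1000000 UMIs of the barcode or set) in the heterozygous and 2393 in the knockout library, and the first barcode outside stood at 1883 and 2390. Within 10% above the lowest member score lay 63 heterozygous and 122 knockout members. Scrublet, a doublet caller, marked 5 heterozygous and 24 knockout members. The libraries shared 88 barcode sequences, and 0 heterozygous and 2 knockout members had a barcode that also occurred in the other library.

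The label of late prophase to dividing spermatocytes was set beside markers that the choice of members did not use, except where stated. The 12 meiotic division markers, cyclins and spindle genes such as Ccnb1, Cdc20 and Plk1, summed to 2422 CPM in heterozygous and 2352 CPM in knockout members. In 250 barcodes per library chosen by early round spermatid markers (Acrv1, Spaca1, Spaca3 and Spaca7), the same 12 genes summed to 703 and 718 CPM, and in a mixed set chosen by pachytene markers to 1035 and 1103 CPM. Both sets were limited to at most 1 UMI of Aurka, Cdk1 and Cdca8 in sum, which favours low division markers there. Every member held at least 1 UMI of the 12 genes, but so did most barcodes of these sets. None was found in 6 and 6 early round barcodes and in 13 and 4 of the mixed set, of 250 per library. The 8 pachytene markers stood at 732 and 807 CPM in members, below the 1308 and 2323 CPM of the mixed set, which some of these markers chose. The 8 early round spermatid markers stood at 307 and 230 CPM in members. They stood at 5845 and 6458 CPM in the early round set, which some of them chose. Markers of the earlier leptotene to zygotene stages summed to 453 and 430.5 CPM in members. Spermatogonia markers, 5 of which the choice held low, summed to 55.6 and 72.1 CPM.

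Summed over members, other cell types left little RNA apart from late spermatids, but single barcodes held more. Sertoli cell markers (8 genes) summed to 9.58 CPM with 3 of 8 at 0 in heterozygous and 73.9 CPM with 1 of 8 at 0 in knockout members. Leydig cell markers summed to 11.4 and 27.0 CPM, and markers of myoid cells, stroma, macrophages, endothelium and red blood cells each to under 5 CPM in both. The 8 late spermatid markers, Prm1, Prm2, Prm3, Tnp1, Tnp2, Odf1, Oaz3 and Smcp, reached 6271 CPM in heterozygous and 3760 CPM in knockout members, and without Prm2 5194 and 3759 CPM. Prm1 was found in every member of both libraries, with a median of 36 UMIs per heterozygous and 12 per knockout barcode. In the early round set these medians were 33 and 12. That set was limited to barcodes with Prm1 under 1% of UMIs and members were not, so the likeness is a description only. Whether free RNA carried these Prm1 UMIs was not tested.

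Genes of the divisions often share short promoter elements, and 6 promoters are shown here because members were chosen by, or express, these genes. Aurka encodes a spindle pole kinase, Cdk1 the kinase that drives entry into division, Ccnb2 a cyclin that binds it and Cks2 a small subunit of the same complex. Cdc20 activates the anaphase promoting complex, and Plk1 encodes a kinase active throughout the divisions. Each window holds the 120 bases before the gene's start in RefSeq on GRCm38.p6, 5′ to 3′ on the gene's strand. Capitals mark CCAAT or its reverse ATTGG, and the elements TTTGAA (reverse TTCAAA) and TTTAAA, known as CHR elements.
Aurka: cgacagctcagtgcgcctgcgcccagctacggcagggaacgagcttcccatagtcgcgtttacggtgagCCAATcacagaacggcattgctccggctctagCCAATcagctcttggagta
Cdk1: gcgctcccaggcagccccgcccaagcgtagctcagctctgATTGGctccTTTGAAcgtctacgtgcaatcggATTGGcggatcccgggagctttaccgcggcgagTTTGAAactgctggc
Ccnb2: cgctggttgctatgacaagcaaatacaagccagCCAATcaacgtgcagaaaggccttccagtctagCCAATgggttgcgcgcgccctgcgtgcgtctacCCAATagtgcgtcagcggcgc
Cdc20: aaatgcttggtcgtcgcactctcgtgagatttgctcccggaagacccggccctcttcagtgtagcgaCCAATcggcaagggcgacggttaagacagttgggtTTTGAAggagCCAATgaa
Plk1: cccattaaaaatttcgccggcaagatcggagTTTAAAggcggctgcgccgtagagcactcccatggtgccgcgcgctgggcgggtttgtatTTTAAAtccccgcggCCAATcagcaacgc
Cks2: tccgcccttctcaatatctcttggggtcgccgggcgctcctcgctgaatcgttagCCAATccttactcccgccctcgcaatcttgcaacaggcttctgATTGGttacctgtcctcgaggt

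The windows lie at chr2:172370571-172370690 (Aurka, minus strand), chr10:69352913-69353032 (Cdk1, minus), chr9:70421555-70421674 (Ccnb2, minus), chr4:118437344-118437463 (Cdc20, minus), chr7:122159315-122159434 (Plk1, plus) and chr13:51645112-51645231 (Cks2, plus). CCAAT on either strand occurred in 4 of the 5 windows found for the genes of the score and in 10 of 10 windows found for the meiotic division markers. Over all 32851 RefSeq windows of this length the share was 21.3%. A pair or more of CCAAT boxes stood in 5 of the 10 division windows and in 4.60% of all windows, and a CHR element in 5 of 10 and in 11.7%. The 8 windows of pachytene markers held CCAAT in 5 and a CHR element in 0, and the 10 windows of early round markers in 1 and 0. In the Cdk1 window the CCAAT boxes began 80 and 48 bases, and the CHR elements 71 and 15 bases, before the start. A match describes these letters only.

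The 6 genes of the score were found in 184 (Ppp1r27) to 246 of the 250 heterozygous and in 216 to 248 of the 250 knockout members. Pabpc6 (chr17:9666495-9669717, mm10), an autosomal gene for a poly(A) binding protein, gave the most UMIs, 898 CPM in heterozygous and 905 CPM in knockout members, with a median of 11 and 10 UMIs per barcode. Aurka (chr2:172356190-172370535) stood at 484 and 574 CPM and was found in 246 and 247 of the 250 barcodes. Cdca8, whose product borealin belongs to the chromosomal passenger complex, stood at 396 and 411 CPM. Each of these 3 genes lay within 2-fold between libraries. Nek2, a centrosome kinase gene, stood at 240 and 275 CPM, and Ppp1r27, for a regulatory subunit of protein phosphatase 1, at 147 and 233 CPM. Cdk1 (chr10:69335146-69352938) stood at 148 CPM (572 UMIs) in heterozygous and 302 CPM (1037 UMIs) in knockout members, with a UMI in 196 and 223 barcodes. Its log2 ratio of knockout over heterozygous was 1.03 (0.88 to 1.18). It ran from 0.75 to 1.09 over 13 settings and passed 2-fold in 7 of them.

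**Figure D1:**
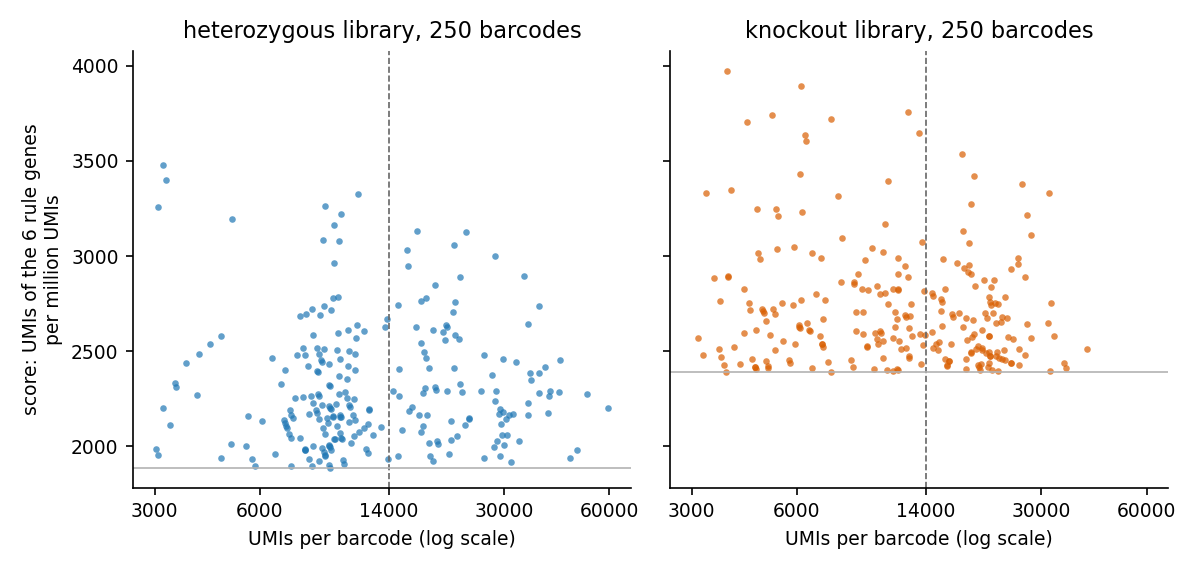
Score (CPM of the 6 genes in sum) against UMIs per barcode (log scale) for the 250 members of each library. The dashed line marks 14000 UMIs and the grey line the lowest member score. Heterozygous members crowd between 8000 and 12000 UMIs, while knockout members spread more evenly and start at a higher score.

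Members differed widely in depth, and differently in the libraries. Heterozygous members held from 3022 to 59562 UMIs (median 10764.5) and knockout members from 3116 to 40588 (median 12280.5). Between 8000 and 12000 UMIs lay 100 heterozygous but 47 knockout members, and between 3000 and 7000 UMIs 25 and 66. At 14000 UMIs or more were 98 heterozygous and 108 knockout members, called deep here, with medians of 22420.5 and 20817.5 UMIs. The other 152 and 142, called shallow, had medians of 9178 and 7181.5 UMIs. The limit of 14000 UMIs was set after the depths were seen. The score hardly differed between the depths: deep and shallow members stood at a median of 2286 and 2200 CPM in the heterozygous and 2597 and 2682 in the knockout library.

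Deep and shallow members differed in named genes, and most of those that could be compared in both libraries pointed the same way. Among 3920 heterozygous genes, shallow members exceeded deep ones by 2-fold or more in 191 (4.87%) and lay as far below them in 99 (2.53%). In the knockout library it was 25 of 3839 (0.651%) and 34 (0.886%). Of the 3557 genes compared in both libraries, 71 were 2-fold higher in heterozygous shallow members, and 70 of these were also above 0 in the knockout library, 16 of them by 2-fold. All 95 genes that were 2-fold lower there were below 0 in the knockout library, 18 of them by 2-fold. Over all 3557 genes, 48.7% were above and 51.3% below 0 in the knockout library. The other 120 higher and 4 lower heterozygous genes were too low in the knockout library to be compared. A gene needed 50 CPM in deep or shallow members, so a gene low at 1 depth entered only through the depth where it was high. This favours a shared direction among the genes compared, and the shares over all 3557 genes do not allow for it. Lcn2, which encodes an iron-binding lipocalin, and Fabp3, for a fatty acid binding protein, went opposite ways, with log2 ratios of shallow over deep of -3.67 and -1.59 in the knockout and 1.14 and 0.99 in the heterozygous library. These 2 genes were named after their values were seen. CPM is relative to the UMI total of each set, so these are shifts in makeup, not in molecules per cell. Late spermatid markers differed with depth too, at 4655 CPM in deep and 9327 CPM in shallow heterozygous members and at 3643 and 3997 CPM in knockout members (3891 and 7660 CPM in the heterozygous library without Prm2), and their part in these shifts was not tested.

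Genes higher in deep members included a germ cell transcription factor and a cell cycle subunit. Pou5f2, a POU-domain factor gene of the testis (chr13:78024902-78026295), stood at 155 CPM in deep and 27.7 CPM in shallow heterozygous members, and at 269 and 99.0 CPM in the knockout library. Its log2 ratio of shallow over deep was -2.49 (-3.01 to -2.00) and -1.44 (-1.75 to -1.15). Cks2 stood at 210 and 64.3 CPM in the heterozygous and at 461 and 224 CPM in the knockout library. Magi2, a scaffold protein gene, stood at 938 and 280 CPM and at 1362 and 568 CPM, and Cyp19a1, which encodes the estrogen-making enzyme aromatase, stood at 74.0 and 26.9 CPM and at 114 and 48.6 CPM. Rassf1, a microtubule-binding tumour suppressor gene, stood at 213 and 71.8 CPM and at 262 and 135 CPM. In these 5 genes deep members were higher in both libraries, though for Rassf1 by under 2-fold in the knockout library.

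Genes higher in shallow members included several that were abundant in the early round set. Spag6, an axoneme protein gene, stood at 12.3 CPM in deep and 82.3 CPM in shallow heterozygous members, at 18.2 and 35.3 CPM in knockout members, and at 424 and 546 CPM in the early round sets of the respective libraries. Its shift in the knockout library was under 2-fold. Slxl1, an X-linked member of a multicopy family expressed in spermatids, stood at 14.6 and 62.9 CPM and at 19.5 and 52.1 CPM, with 356 and 468 CPM in the early round set. Tsga8, an X-linked spermatid gene, stood at 62.1 and 166 CPM and at 31.2 and 109 CPM, with 1112 and 1094 CPM in that set. Kif2b, a kinesin gene, stood at 22.9 and 63.6 CPM and at 22.5 and 53.0 CPM. Division genes differed less between the depths: Ccna1 stood at 322 and 358 CPM and at 326 and 361 CPM, Plk1 at 164 and 182 CPM and at 135 and 222 CPM, and Cdc20 at 290 and 300 CPM and at 409 and 452 CPM in deep and shallow members. Ccnb1 stood at 193 and 269 CPM and at 155 and 224 CPM, and Ccnb2 at 279 and 370 CPM and at 318 and 383 CPM. These 5 were higher in shallow members of both libraries by under 2-fold, Plk1 in the knockout library the most. Not every division gene was. As a share of UMIs, Aurkc was lower in shallow members of both libraries, and Ube2c in those of the knockout library. Cks2, given above, was lower in shallow members too.

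**Figure D2:**
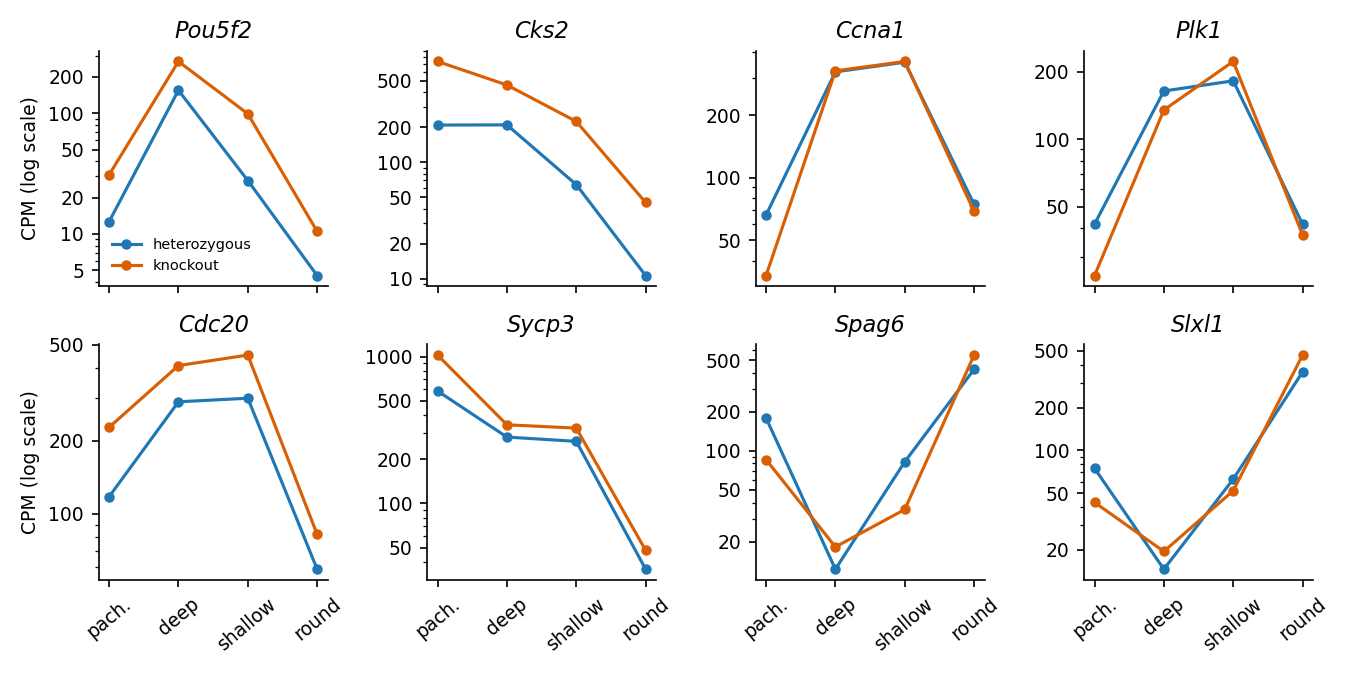
CPM (log scale) of 8 genes in the pachytene-marker set, deep members, shallow members and the early round set of each library; every point is a sum over barcodes of 1 library. Pou5f2 peaks in deep members, Ccna1 and Plk1 are highest in members of both depths, and Spag6 and Slxl1 are lowest in deep members and highest in the early round set. Sycp3 helped to choose the pachytene-marker set.

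A pair of comparison sets places the members among their neighbours. Both sets were limited to barcodes with at most 1 UMI of Aurka, Cdk1 and Cdca8 in sum. The early round set was also limited to barcodes with Prm1 under 1% of UMIs. Besides the early round set, 250 barcodes per library were taken by the share of the pachytene markers Piwil1, Mybl1, Sycp3 and Tdrd9. That pachytene-marker set is mixed, with a median of 4181.5 heterozygous and 4380.5 knockout UMIs, 42597 and 15125 CPM of late spermatid markers, and 2055 and 3145 CPM of leptotene to zygotene markers, and its name gives the markers used, not a cell type. Of the 3572 genes at 50 CPM or more in members of both libraries pooled, 532 were at least 2-fold above both sets. These counts include genes used in the choices, whose excess was partly fixed by them. The ranking of leading genes below leaves out those genes and predicted names. There was no test, since cells were chosen on these counts.

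The genes that led over both sets had varied roles. Mesp1, a transcription factor gene known from heart mesoderm, was the most abundant of the 15 with the highest ratios, at 1214 CPM in heterozygous and 1397 CPM in knockout members against 227 and 195 CPM in the early round set. Ccdc38, a coiled-coil protein gene, stood at 1023 and 792 CPM, and Pbp2, of the phosphatidylethanolamine-binding protein family, at 749 and 551 CPM. Rhcg, an ammonium channel gene, had the highest ratio over the nearer set, a log2 ratio of 2.92, with 78.4 and 81.4 CPM in members. Dnaic2, for a dynein arm chain, stood at 156 and 139 CPM, and Nubp2, for an iron-sulfur assembly factor, at 374 and 330 CPM. These 6 genes lay within 2-fold between the libraries. Rgcc, a regulator of CDK1 activity, did not, with 46.3 CPM in heterozygous and 109 CPM in knockout members. The other 8 of the leading 15, Pou5f2, Lef1os1, Adgrl2, Abhd11, Nicn1, Them6, Vav1 and Kcnj9, ranged from 59.3 to 213 CPM in members. Lef1os1 is an antisense gene, and whether counting used strand is not given in the sources used here.

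RNA from the X chromosome, which took no part in the choice, was scarce in members. It made up 0.175% of UMIs in heterozygous members (6752 UMIs, exact interval 0.171 to 0.179%) and 0.141% in knockout members (4857 UMIs, 0.137 to 0.145%). In the early round set it was 1.25% and 1.36%, and in the mixed pachytene-marker set 1.01% and 0.592%. Deep members held the least, 0.116% and 0.106%, and shallow members 0.286% and 0.213%. Members were also split into 3 near-equal groups by the balance of pachytene against early round markers. From the prophase to the spermatid side, the X-linked share was 0.0951%, 0.192% and 0.334% for heterozygous members. For knockout members it was 0.0884%, 0.112% and 0.287%. Both libraries thus gave the same order by depth and by marker balance. These orders overlap. Of the 84 members on the prophase side, 66 heterozygous and 52 knockout ones were deep, and of the 83 on the spermatid side 9 and 16. Y-linked UMIs were 0.00489% and 0.00378% in members and 0.0431% and 0.0544% in the early round set. Of X-linked genes only Tsga8 and Akap4 were abundant enough to be compared between libraries, and they led the X-linked UMIs of both libraries' members, with 379 and 262 UMIs in the heterozygous and 195 and 187 in the knockout library.

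**Figure D3:**
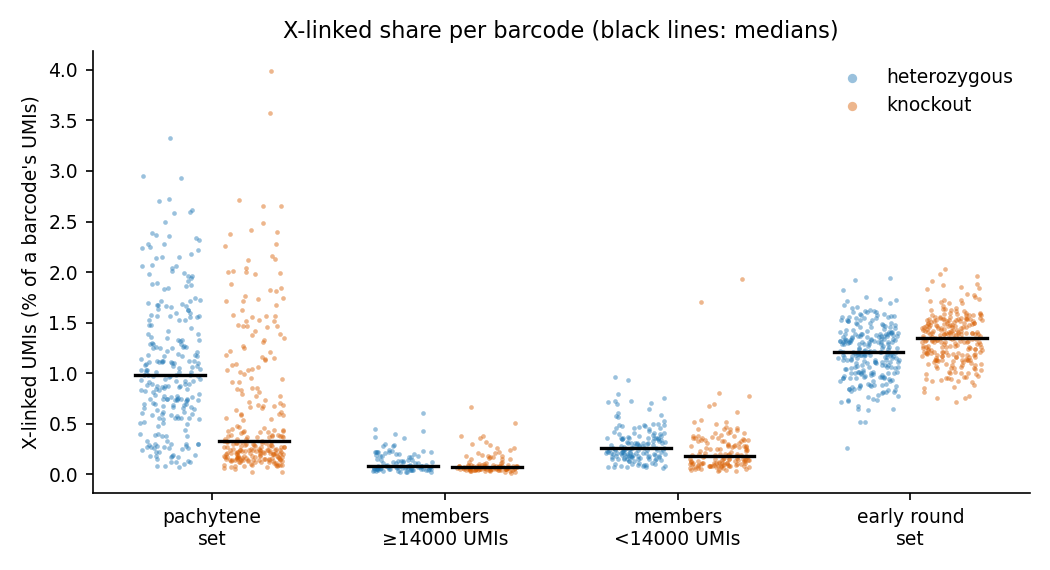
X-linked UMIs as a percentage of each barcode's UMIs in the 4 sets of both libraries; points are barcodes and black lines are medians. Deep members lie lowest, with medians of 0.0814% (heterozygous) and 0.0689% (knockout), and the early round set at 1.21% and 1.35%.

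Between the libraries most genes of the members lay close together. Of 3836 genes compared (at least 50 CPM in 1 library and 100 UMIs over both), knockout members exceeded heterozygous ones by 2-fold or more in 52 (1.36%) and lay as far below them in 28 (0.73%), and the median log2 ratio of knockout over heterozygous was 0.00. Deep members alone gave 52 higher (1.36%) and 30 lower (0.783%) of 3829. Shallow members gave 79 (2.03%) and 83 (2.14%) of 3886. The ratios have no replicate check, and the libraries differ in genotype, depth, score limit and makeup at once, which cannot be told apart.

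Prm2 (chr16:10791380-10796134) had 4159 UMIs in heterozygous and 1 UMI in knockout members, a log2 ratio of -11.85 (-17.16 to -9.37). It was found in 250 of 250 heterozygous and 1 of 250 knockout barcodes. The labels do not say which stretch of the gene was altered, so this checks the library only for transcripts with the counted 3′ end. Prm1 stood at 2453 and 1624 CPM, Tnp1 at 870 and 565 CPM and Tnp2 at 1146 and 819 CPM. In deep members their log2 ratios were -0.22, -0.26 and -0.07, and in shallow members -1.07, -1.10 and -1.05. Prm3, the remaining gene of this list, had log2 ratios of 0.07 in all members, 0.36 in deep and -0.22 in shallow members.

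Apart from Prm2, the genes furthest below the heterozygous level were of unrelated function. Rabgef1, which encodes an activator of the endosomal GTPase RAB5, stood at 66.5 CPM (257 UMIs) in heterozygous and 2.04 CPM (7 UMIs) in knockout members, 32.7-fold lower. H2-Ab1, an MHC class II chain gene (chr17:34257689-34269419), stood at 75.3 and 6.69 CPM, 11.3-fold lower, and Mrps5, a mitochondrial ribosomal protein gene, at 112 and 24.1 CPM. For these 3 genes the ratio was at least 2-fold in all 13 settings. Pdxdc1 (chr16:13833148-13903131), on the same chromosome as Prm2, stood at 99.9 and 30.8 CPM, and Tcp10b, of the t-complex region (chr17:13061104-13082481), at 425 and 168 CPM. Chromosome 17 held 8 of the 28 lower genes and 215 of the 3836 compared. Tcp10b has near-identical copies, so its count is uncertain. Upk3bl stood at 52.8 and 15.4 CPM and Ppfia2, a liprin gene, at 109 and 48.6 CPM. Ppfia2 passed 2-fold in 9 of 13 settings, with -0.40 nearest to 0.

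Cmss1 (chr16:57302000-57606864) stood at 361 CPM in heterozygous and 80.9 CPM in knockout members. Gm42418, a predicted gene that overlaps ribosomal RNA sequence and was chosen after its values were seen, stood at 1760 and 620 CPM. In the heterozygous library both were also higher in shallow than in deep members. Deep and shallow members stood at 207 and 653 CPM for Cmss1 and at 1145 and 2923 CPM for Gm42418. The shift of Cmss1 in the knockout library was under 2-fold. The part of ribosomal RNA in these values was not tested. Among predicted names, also chosen after their values were seen, Gm10260 had 301 UMIs in heterozygous and 0 in knockout members, at least 89.3-fold lower by a floor of 3 counts per library. 4933431M02Rik had 0 and 282 UMIs, at least 105.6-fold higher by the same floor.

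**Figure D4:**
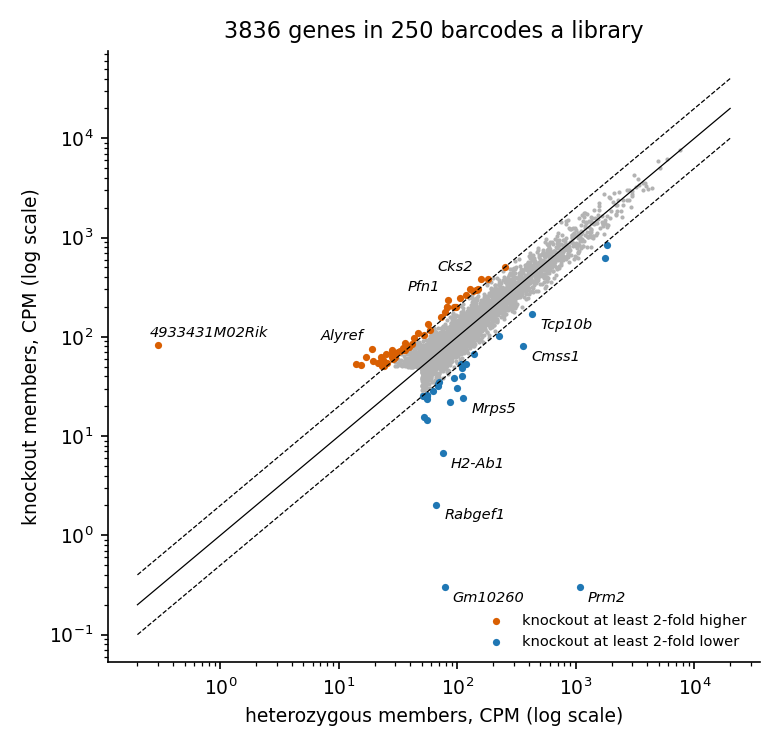
CPM of 3836 genes in heterozygous (x axis) and knockout (y axis) members, both log scales; dashed lines mark 2-fold and genes at 0 are drawn at 0.3 CPM. Most genes lie near the diagonal, with 52 beyond the upper and 28 beyond the lower dashed line.

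The genes furthest above the heterozygous level included genes of mRNA export, actin and protein folding. Alyref, an mRNA export adaptor gene, stood at 18.9 CPM (73 UMIs) in heterozygous and 76.2 CPM (262 UMIs) in knockout members, a log2 ratio of 2.01 (1.63 to 2.41). Pfn1, for the actin-binding profilin, stood at 83.3 and 236 CPM, and Sdf2l1, a chaperone cofactor of the endoplasmic reticulum, at 81.0 and 200.1 CPM. Alyref and Pfn1 passed 2-fold in all 13 settings. Ppp4c, the catalytic subunit of protein phosphatase 4, stood at 25.1 and 67.2 CPM, Pfdn4, a prefoldin subunit, had a log2 ratio of 1.40, and Krt10, a keratin gene, stood at 19.4 and 57.0 CPM. Smim10l1, BB557941, Gpn2 and Leng8 completed the 10 highest, with log2 ratios of 1.89, 1.45, 1.34 and 1.30. Gpn2 (lowest 0.95) and Leng8 (lowest 0.64) each passed 2-fold in 11 of 13 settings. Alyref, Ppp4c, Rabgef1, H2-Ab1 and Mrps5 belong to a list of genes known to differ in other cells of these libraries, so they are no independent evidence here. Of the 9 such genes compared, 3 were 2-fold higher and 3 lower, against 1.36% and 0.73% of all genes.

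Cyclins and partners of CDK1 mostly lay above the heterozygous level. Leaving out Cdk1, which helped to choose the members, 6 of 13 listed genes were compared, of which 5 were above 0 and 1 (Cks2) was at least 2-fold higher. Their median log2 ratio was 0.23. Over all genes the median was 0.00, with 1929 of 3836 above 0 and 1.36% at least 2-fold higher. In the lists that follow, the 6 genes of the score are left out likewise. Cks2, which helps CDK1 bind its substrates, stood at 159 CPM in heterozygous and 383 CPM in knockout members, a log2 ratio of 1.27 (1.13 to 1.41), with 1.14 in deep and 1.80 in shallow members. A Cks2 UMI was found in 143 and 208 of 250 barcodes. Hspa2, a chaperone needed for CDK1 activity in spermatocytes, stood at 1155 and 1476 CPM, and Spdya, an activator of CDK2, at 265 and 333 CPM. The meiotic cyclin gene Ccna1 stood at 335 and 337 CPM, Ccnb2 at 310 and 339 CPM and Ccnb1 at 219 and 177 CPM. The cyclins themselves thus lay near equality, and Ccnb1 was lower, with a log2 ratio of -0.31 (-0.46 to -0.15).

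Kinases and phosphatases of the divisions centred near 0. Of 17 listed genes 11 were compared, 6 above and 5 below 0, none by 2-fold, with a median of 0.05. Over all genes compared, only 1.36% were at least 2-fold higher and 0.73% lower. A list with none past 2-fold, here or below, is therefore no result about its genes. Plk1 stood at 170.0 and 163 CPM, Aurkc, the Aurora kinase typical of meiosis, at 60.0 and 65.7 CPM, and Ttk, a checkpoint kinase gene, at 53.8 and 57.6 CPM. Aurkb, the kinase of the chromosomal passenger complex, was the furthest, at 33.6 and 66.6 CPM, a log2 ratio of 0.99 (0.67 to 1.31). Haspin, a histone kinase gene, stood at 779 and 725 CPM and Ppp1cc, which encodes the phosphatase needed for sperm formation, at 1004 and 1180 CPM. Cdc25a, an activating phosphatase of CDKs, stood at 134 and 109 CPM and Bub1, a checkpoint kinase, at 50.7 and 39.8 CPM.

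Kinetochore and passenger genes split. Of 19 listed genes 10 were compared, 4 above and 6 below 0, with a median of -0.10. The spindle-attachment gene Ska1 stood at 52.0 and 105 CPM, a log2 ratio of 1.02, and passed 2-fold in 8 of 13 settings. The large kinetochore proteins Cenpe (264 and 192 CPM) and Cenpf (541 and 430 CPM) were lower, and the passenger gene Birc5 (303 and 378 CPM) higher. Ndc80 and Nuf2, which bind microtubules at the kinetochore, stood at 83.3 and 66.6 CPM and at 83.6 and 86.1 CPM. Of the 26 spindle, centrosome and cytokinesis genes 17 were compared, 8 above and 9 below 0, with a median of -0.01. The motor Kif20a was highest (30.8 and 50.6 CPM) and the motor Kif18a lowest (62.4 and 44.2 CPM). Prc1, a spindle midzone gene, stood at 251 and 271 CPM, and Cetn1, for a testis centrin, at 1435 and 1907 CPM.

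The anaphase promoting complex and the spindle checkpoint had a median of 0.44 (0.30 in shallow members), with 9 of 12 compared genes above 0 and none past 2-fold. Cdc20 stood at 293 CPM in heterozygous and 423 CPM in knockout members, a log2 ratio of 0.53 (0.42 to 0.64), with 0.50 in deep and 0.59 in shallow members. Pttg1, which encodes the separase inhibitor securin, stood at 226 and 330 CPM, the checkpoint gene Bub3 at 93.7 and 153 CPM and the complex's inhibitor Fbxo43 at 32.6 and 55.6 CPM. In contrast Fzr1, the other activator of the complex, stood at 190 and 125 CPM, a log2 ratio of -0.60. The ligase partner Ube2s stood at 1329 and 1457 CPM and Espl1, which encodes separase, at 68.1 and 69.8 CPM. The list's median kept its sign in 15 of 15 settings, from 0.18 to 0.54.

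Cohesin, shugoshin and condensin genes centred near 0, with 4 of 9 compared genes above and 5 below 0 and a median of -0.03. The cohesin subunit Smc3 was the furthest below, at 51.5 and 29.4 CPM, while the meiotic subunits Smc1b (310 and 343 CPM) and Stag3 (133 and 136 CPM) lay close. Sgo2a, the shugoshin that guards cohesin at centromeres, stood at 138 and 142 CPM and the condensin gene Smc4 at 1050 and 1029 CPM. Synaptonemal complex genes gave 4 above and 3 below 0 of 7, with a median of 0.09 that kept its sign in 7 of 15 settings. Sycp3, of the complex's lateral element, stood at 277 and 338 CPM and Sycp1, of its transverse filaments, at 124 and 116 CPM. Of 18 recombination genes 4 were compared, all above 0, Spo11 (48.7 and 68.9 CPM), Cntd1 (106 and 137 CPM), Mlh3 (53.3 and 65.7 CPM) and Prr19 (106 and 115 CPM). Spo11 reached the minimum of 50 CPM only in the knockout library, which favoured its sign. Over all genes 1929 of 3836 were above 0.

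Meiotic transcription factors gave 4 above and 4 below 0 of 8, with a median of 0.11. Pou5f2 stood at 111 and 213 CPM, a log2 ratio of 0.94 with 0.79 in deep and 1.84 in shallow members, and Tbpl1, a TBP-related factor gene, at 831 and 1358 CPM. Mybl1, a master regulator of pachytene genes, stood at 127 and 95.7 CPM, and Crem, an activator of spermatid genes, at 280 and 269 CPM. Nfya, a subunit of the factor that binds CCAAT, stood at 62.6 and 89.0 CPM and Foxm1, a division transcription factor gene, at 65.5 and 52.4 CPM. Both Nfya and Foxm1 lay within 2-fold.

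Histone and chromatin genes were above 0 in 6 of 9, with a median of 0.34 that turned to -0.02 with a minimum of 10 CPM. The variants H2afz (1181 and 1626 CPM), H3f3a (699 and 1032 CPM) and H3f3b (446 and 617 CPM) and the damage-marking H2afx (51.0 and 82.6 CPM) were higher in knockout members. The spermatid linker histone gene Hils1 was lower, at 114 and 68.1 CPM, with a log2 ratio of -0.41 in deep and -1.13 in shallow members. Autosomal copies of X-linked genes, which serve cells whose X is silent, had a median of 0.41, with 3 of 5 above 0. Rbmxl2 stood at 85.9 and 159 CPM, Pdha2 at 144 and 244 CPM and Cetn1 as above, while Pgk2 stood at 312 and 244 CPM and Rpl10l at 152 and 147 CPM.

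Genes of mRNA binding and translation gave 12 above and 6 below 0 of 18, with a median of 0.09. Ybx2, which encodes the germ cell mRNA storage protein MSY2, stood at 857 and 1499.9 CPM, a log2 ratio of 0.81 (0.74 to 0.87), and the cap-binding gene Eif4e at 140.0 and 233 CPM. The poly(A) binding genes Pabpc1 (2478 and 2375 CPM) and Pabpc2 (1063 and 1104 CPM) lay close, as did Boll (188 and 189 CPM) and Ddx25 (568 and 572 CPM), regulators of translation in late meiosis. Among cytosolic ribosomal protein genes, 59 of 73 were below 0 and 14 above, with none past 2-fold and a median of -0.29. That median ran from -0.33 to -0.22 in 15 of 15 settings. Rpl21 (548 and 311 CPM) was the furthest below, and Rps7 (1398 and 1409 CPM) lay at equality. Many of these genes have near-identical copies, so single values are uncertain.

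UMIs of genes of the coming spermatid were found in members too, and the part of free RNA in them was not tested. Of 14 early acrosome and spermatid genes 6 were compared, 3 above and 3 below 0, with a median of -0.10. Dkkl1 stood at 1654 and 1437 CPM, Spata16 at 781 and 659 CPM and Zpbp2 at 734 and 736 CPM, all genes of the acrosome. Glycolysis and lactate genes were below 0 in 7 of 9, with a median of -0.32. The testis lactate dehydrogenase gene Ldhc was the most abundant at 7560 and 7552 CPM, Pgam2 stood at 1392 and 1029 CPM, and Bsg, which encodes a partner of lactate transporters, was higher at 593 and 860 CPM. Over the same genes, deep members gave medians of 0.03 for acrosome and -0.08 for glycolysis genes, and shallow members -0.11 and -0.45. The part of the late spermatid markers, whose levels by depth are given above, was not tested here either.

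Most listed genes of cell death or stress were too low in members to be compared. The same held for most genes, since 3836 of 32285 gene IDs were compared. Of 16 apoptosis and DNA damage genes 3 were compared, and Diablo, a caspase activator gene, stood at 393 and 569 CPM, Mcl1, a survival gene, at 84.1 and 90.7 CPM and Mdm2, the p53 ligase gene, at 112 and 106 CPM. None passed 2-fold. Of 16 heat shock and dissociation genes 4 were compared, all below 0, led by Hsp90aa1 at 4046 and 3121 CPM with a log2 ratio of -0.37 (-0.41 to -0.34). Mitochondrial mRNAs were above 0 in 8 of 10, with a median of 0.20. mt-Cytb, for cytochrome b, stood at 244 and 464 CPM, and mt-Co1, for a cytochrome oxidase subunit, at 2693 and 2377 CPM. The mitochondrial share of a member's UMIs had a median of 1.17% in heterozygous and 1.22% in knockout members.

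**Figure D5:**
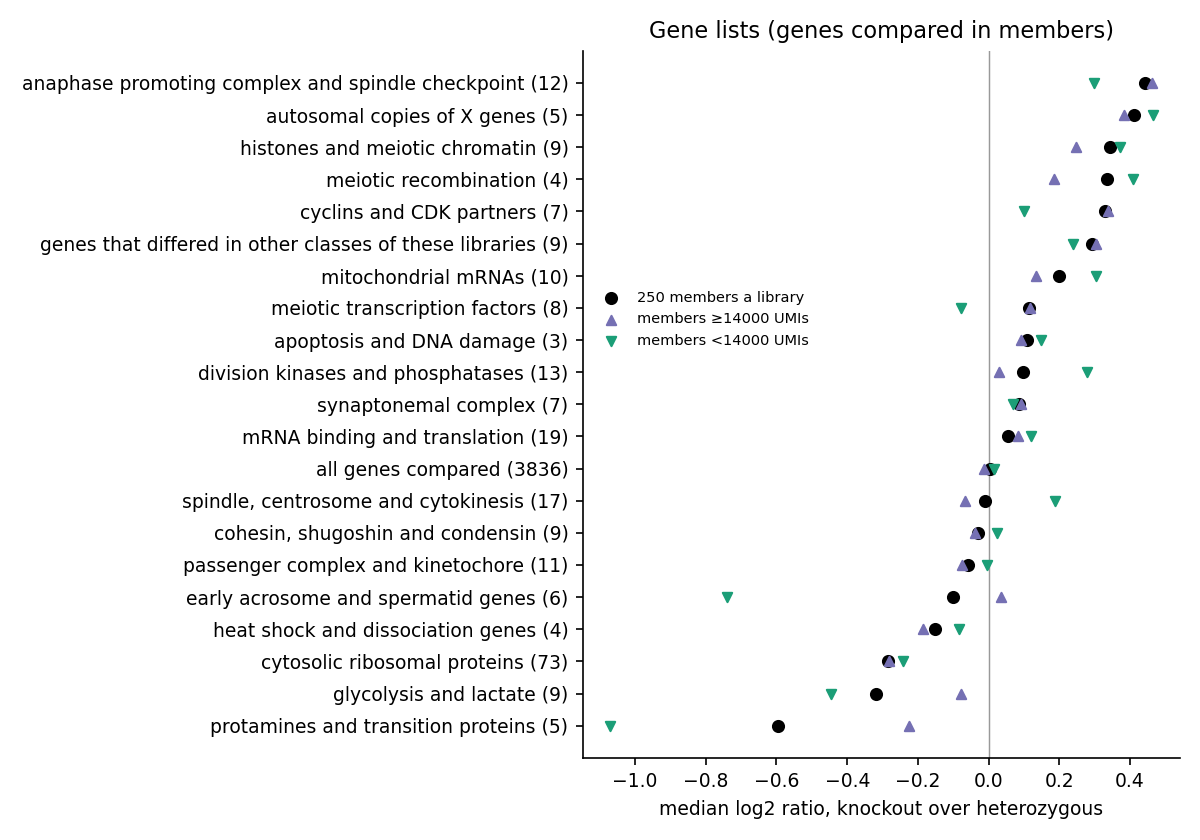
Median log2 ratio (knockout over heterozygous) of each gene list, with the number of genes compared in parentheses, in all members (circles), members with at least 14000 UMIs (up triangles) and members under 14000 UMIs (down triangles). The anaphase promoting complex list lies at 0.44 in all members and ribosomal proteins at -0.29. Lists are drawn with score genes included, and the acrosome list holds 11 genes in shallow and 6 in other members.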

How the data were processed

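Whole testis cells of 1 Prm2 +/- and 1 Prm2-/- library were captured with a droplet 3' kit, per the labels' protocols. The deposited files hold UMI counts per gene and barcode, which the authors made with version 7.1.0 of Cell Ranger, per the file headers. Seurat 4.1.0 and the mm10 build are listed in the submitters' processing notes, with no role given. Positions come from GENCODE M21 (32158 of 32285 gene IDs), promoter windows from RefSeq on GRCm38.p6. No columns of other samples were present (0).

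Members were chosen as described, by a rule written with earlier results of these data known, as were the gene lists, markers and tests. UMIs were summed over members of a library and scaled to CPM (numpy 2.4.6, scipy 1.17.1). Member sums were 3864015 heterozygous and 3438133 knockout UMIs. Genes entered with at least 50 CPM in 1 library and 100 UMIs over both. Ratios have exact conditional binomial and shares exact Clopper-Pearson intervals at 95%. Where 1 library had 0 UMIs a floor of 3 counts was used. Scrublet (scanpy 1.11.5) marked doublets at an expected 0.8% per 1000 barcodes and left in, except in an alternative. On simulated data, 98 of 98 genes changed 3-fold and 0 of 3490 unchanged genes were called in the comparison of libraries. The simulated counts came from 1 shared profile with counting error only. They hold no spread between barcodes or libraries, so they give no rate of false calls for the real libraries.

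Genes named are the 6 of the score, the 10 highest and 10 lowest ratios past 2-fold without predicted names, up to 4 per list with the largest ratio and up to 4 with the highest level, and the 15 leading over both comparison sets; not all are printed, and some items are not reported here. Genes of the comparison by depth were chosen after their values were seen. Lists without score genes, lists over 1 gene set and late spermatid sums without Prm2 were added after seeing the data. Alternatives covered doublets, the number of members, score, mitochondrial and depth limits, TMM scaling (edgeR 4.0.16), equal weight per barcode, thinning to 3000 UMIs, totals without protamine genes and minimums of 10 and 200 CPM.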

Additional observations from a re-analysis of the deposited data

Results flagged for a closer look

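The median log2 ratio of early acrosome and spermatid genes was -0.74 (11 genes) in members under 14000 UMIs and 0.03 (6 genes) in members with at least 14000 UMIs, opposite signs for the same contrast of knockout over heterozygous. The gene sets differ, since 5 genes passed the minimum of 50 CPM only in members under 14000 UMIs. Among them, Acrv1, Spaca1 and Spaca7 passed it only in the heterozygous library, where they were higher. The minimum thus favoured the lower median of the 11 genes. Over the same 6 genes the medians were -0.11 and 0.03. With 1 library per genotype the difference was not tested.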

How the results depend on the processing

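Against 52 higher and 28 lower genes, knockout members gave 30 higher with all candidates, 81 higher with the same score limit, 102 and 109 with a minimum of 10 CPM, 13 and 6 with 200 CPM, and 45 lower with each barcode weighted equally. Members under 14000 UMIs, added after seeing the data as were the deep members and those nearest prophase, gave 79 and 83. TMM gave 65 higher and 23 lower and moved the median of all genes to 0.07. The genes called changed too. Of the 52 higher and 28 lower genes, 18 and 16 were called with all candidates and 25 and 20 in members under 14000 UMIs. Thinning to 3000 UMIs called 50 and 22 genes, of which 17 and 12 were among them. Without doublet calls 49 and 27 were kept. Requiring 3 or 6 UMIs of Aurka, Cdk1 and Cdca8 in sum made candidates 28.1% or 15.0% of heterozygous and 24.9% or 12.1% of knockout barcodes. The X-linked share was 0.155% with 100 members, 0.332% with all candidates, 0.161% with the same score limit, 0.169% from 6000 UMIs, 0.116% in deep and 0.286% in shallow members and 0.0951% in the members nearest prophase of the heterozygous library; in the knockout library it was 0.149%, 0.393%, 0.124% from 6000 UMIs, 0.106%, 0.213% and 0.0884%, and 0.124% without doublet calls. With a depth limit of 16000 UMIs, 14 genes were higher in shallow knockout members. The causes were not tested. No called value among the named genes changed sign in these settings.

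No paired analysis was possible because each genotype has 1 library. Depth limits the text to genes of at least 50 CPM in summed members; low genes in single barcodes were not detectable at this depth. The pachytene-marker set is mixed, and no replicate can separate library from genotype.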
